A study of Mus musculus with 39 samples.

Results

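The complement genes described here are 9 transcripts measured in PB2 mouse breast tumors: C1qa, C1ra, C1s1, C3, C4b, C3ar1, C5ar1, Cd55 and Serping1. They were chosen by symbol from a table of 20520 genes, all 9 were found, and all 9 were among the 13650 genes with enough reads to be tested. PB2 is a mouse breast tumor cell line, and its tumors expressed HER2 at full length (FL-HER2) or as p95HER2, a truncated receptor without most of the extracellular part. Tumors were collected 10 or 22 days after implantation, which gave 4 groups: 10 FL-HER2 tumors at day 10, 10 p95HER2 tumors at day 10, 9 FL-HER2 tumors at day 22 and 10 p95HER2 tumors at day 22. RNA was selected for poly(A) tails and sequenced as 1 library per tumor number, and each library is counted here as 1 tumor. All tumors came from the same parental line, and the sources used here do not give the promoter of either receptor or the strain and age of the mice. Without a tumor of the parental line, each form of HER2 was compared with the other and not with its absence.

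Complement is a cascade of plasma and tissue proteins. In the classical pathway C1q binds antibody or damaged surfaces, the proteases C1r and C1s are activated, and they cleave C4 and C2 to form an enzyme that cleaves C3. Fragments of C3 and C5 coat surfaces or act on cells through the receptors C3aR and C5aR1. Regulators limit the cascade: C1 inhibitor, encoded by Serping1, blocks C1r and C1s, and CD55, a membrane protein, speeds the decay of the C3-cleaving enzymes. The liver makes most plasma complement, whereas in tissues macrophages are a well-known source of C1q and fibroblasts and epithelial cells can make C1r, C1s, C3 and C4.

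At day 10, 8 of the 9 genes were lower in p95HER2 than in FL-HER2 tumors, with C3 the exception. At day 22 none of the 9 was called. From day 10 to day 22, 8 of the 9 fell in FL-HER2 tumors, with C1qa the exception, and only C1ra and C1s1 passed the test in p95HER2 tumors. The change of the p95HER2 effect between the days was itself called for 5 genes: C1s1, C3ar1, C5ar1, Cd55 and Serping1. None of the 5 was called when the length of the tumor number, long only in FL-HER2 day 10 tumors, was a term. Of all genes tested, 26.1% were lower at day 10 and 1.54% at day 22, and 13.5% had a change of the effect called higher. With time 30.6% of all genes fell in FL-HER2 and 18.6% in p95HER2 tumors. FL-HER2 tumors at day 10 held the highest mean CPM of the 4 groups for all 9 genes. For C1qa the next mean was near (210 against 207 CPM in FL-HER2 day 22 tumors), as for C3 (341 against 326 CPM in p95HER2 day 10 tumors). Neither of these differences was called.

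Promoter sequence is shown for C3, C1s1 and Cd55, the genes with a RefSeq start site that coincides with that of GENCODE. Whether these sequences relate to the levels of the genes was not tested. RefSeq promoters (GRCm38.p6) were found for 6 of the 9 genes. The 250 bases before the start were searched on both strands for a C/EBP-type motif (TTGCNNAA), an interferon-response-type motif (GAAANNGAA) and a STAT-type motif (TTCNNNGAA), which occur in 9.56%, 7.13% and 7.02% of 32851 promoters of the same length. Capitals mark the motif match, and sequences are written from 5′ to 3′ on the gene's strand, ending at the base before the start site. The C3 window is chr17:57228137-57228386, the C1s1 window chr6:124542360-124542609 and the Cd55 window chr1:130462745-130462994, all on the minus strand.
C3: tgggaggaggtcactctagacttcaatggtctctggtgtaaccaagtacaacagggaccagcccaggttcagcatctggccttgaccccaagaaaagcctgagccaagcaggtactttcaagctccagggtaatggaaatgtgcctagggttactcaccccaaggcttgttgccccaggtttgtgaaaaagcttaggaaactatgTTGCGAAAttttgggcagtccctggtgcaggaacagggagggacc
C1s1: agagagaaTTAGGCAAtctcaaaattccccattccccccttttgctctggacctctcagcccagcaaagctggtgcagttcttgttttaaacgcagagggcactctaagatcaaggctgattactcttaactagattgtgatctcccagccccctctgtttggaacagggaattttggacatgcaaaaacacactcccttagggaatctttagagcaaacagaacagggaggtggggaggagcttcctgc
Cd55: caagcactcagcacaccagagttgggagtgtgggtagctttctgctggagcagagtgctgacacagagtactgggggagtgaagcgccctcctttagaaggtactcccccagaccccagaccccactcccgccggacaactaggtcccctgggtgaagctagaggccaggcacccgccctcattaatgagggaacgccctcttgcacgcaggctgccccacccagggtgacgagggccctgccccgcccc
The C3 window held 1 C/EBP-type match that starts 45 bases before the start site, and the C1s1 window shown held 1 that starts 242 bases before it. A second RefSeq start of C1s1, at chr6:124542321, does not coincide with that of GENCODE, and the 250 bases before it held none of the 3 motifs. The Cd55 window held none of the 3 motifs. In C5ar1, whose start sites differ between the annotations, 1 interferon-response-type match began 66 bases upstream of the RefSeq start. A match describes letters in the window and says nothing of whether a factor binds there.

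Levels of the 9 genes were first set in order per exon length, as RPKM (CPM divided by the exon length in kilobases) over the 39 libraries. The order was C1qa at 169 ± 51.9 RPKM (SD, n = 39), C3 at 51.5 ± 30.1, Serping1 at 23.7 ± 13.3, C4b at 18.1 ± 7.05, C1s1 at 12.3 ± 7.01, C1ra at 8.32 ± 4.52, C3ar1 at 6.93 ± 2.17, C5ar1 at 4.91 ± 1.68 and Cd55 at 1.48 ± 0.703. C1qa exceeded C3 in 39 of 39 libraries, and C5ar1 exceeded Cd55 in 39 of 39. Serping1 exceeded C4b in 28 of 39 libraries and C1ra exceeded C3ar1 in 24 of 39, so these neighbours did not keep 1 order. The least covered value was 94 reads of Cd55 in 1 library, and the best covered was 29079 reads of C3.

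The genes lie at 6 chromosomes in the mouse genome (mm10, GENCODE M21). C1ra (chr6:124512405-124523443), C1s1 (chr6:124530345-124542359) and C3ar1 (chr6:122847138-122856161) share chromosome 6, and C3 (chr17:57203970-57228136) and C4b (chr17:34728380-34743882) share chromosome 17. C1qa is at chr4:136895917-136898803, C5ar1 at chr7:16246743-16259540, Cd55 at chr1:130439027-130462744 and Serping1 at chr2:84765387-84775444. Values cover all exons of each gene. Near-identical copies carried few reads: C4a had group means of 1.19 to 1.75 CPM (read counts scaled to the library total), and C1rb, C1s2 and Cd55b had means over all libraries of 0.0149, 0.189 and 0.00436 CPM. The treatment of reads that match both copies is not stated, so C4b, C1ra, C1s1 and Cd55 are uncertain to that extent.

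Libraries held 21772259 to 44427621 reads. Erbb2, the mouse gene of HER2, was higher in p95HER2 tumors at day 10 (log2 change 0.85 ± 0.10, limma adjusted p = 6.64e-08) and at day 22 (0.73 ± 0.11, adjusted p = 1.41e-05), and its reads cannot be assigned to the host gene or to the construct. Skeletal muscle genes took 0.0467% to 3.70% of reads in FL-HER2 day 10 tumors against 0.00336% to 1.02% in p95HER2 day 10 tumors, and 11 libraries stood apart by skin genes (2, 5, 1 and 3 in the 4 groups as listed above). Tumor numbers in the descriptions had 5 digits in 8 of 10 FL-HER2 day 10 libraries and 3 digits elsewhere, and what the number length stands for is not given. It is not stated whether the 8 libraries are of single tumors, of pooled tumors or of another cohort. In 1 FL-HER2 day 10 library (replicate 8) the title gives a shorter tumor number than the description, whose 5 digits were used here. Nothing says whether tumors of a group came from separate mice, so p-values measure the spread between these libraries. Hepatocyte genes were near 0 (summed CPM of 8 genes 0.165 to 2.51 per library, none tested), so the plasma source of complement was scarcely present in these libraries.

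**Figure D1:**
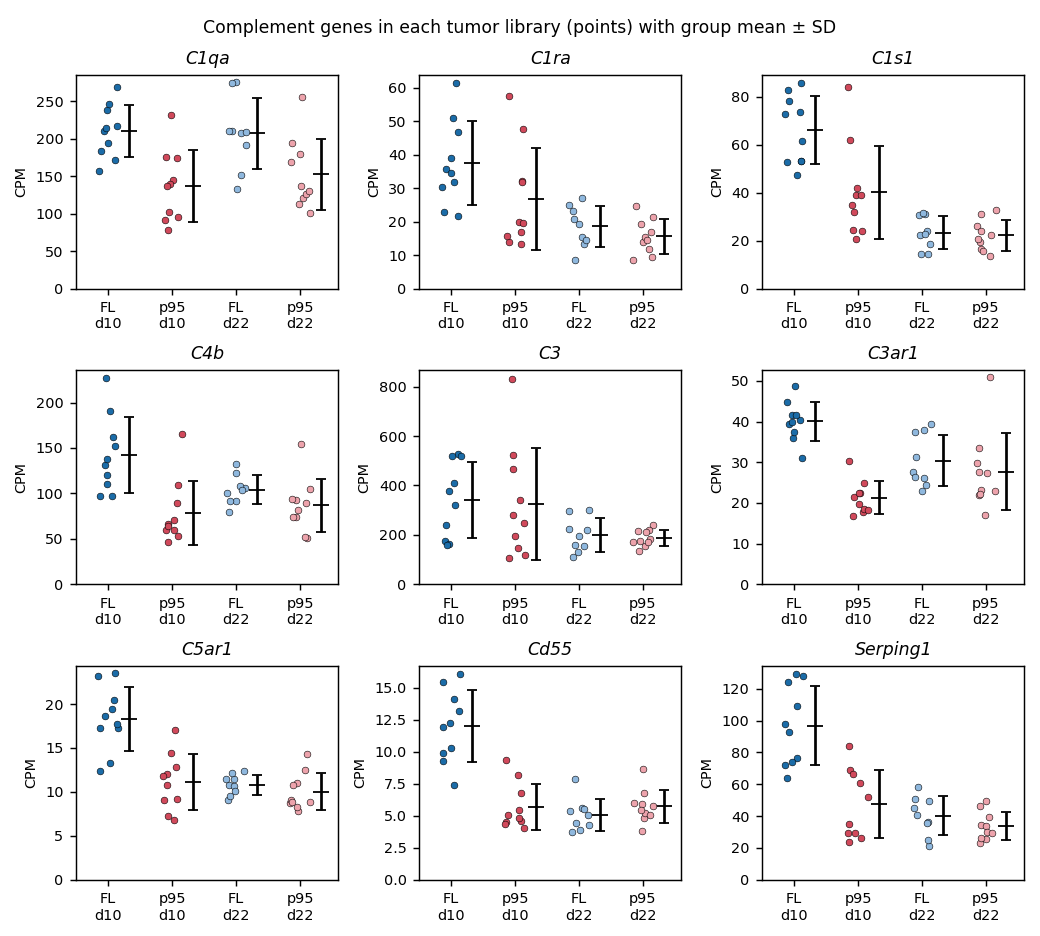
Read counts scaled to the library total (CPM, linear axis from 0) of the 9 complement genes; each point is 1 tumor library, and the bar beside each group gives its mean ± SD (10, 10, 9 and 10 libraries). FL-HER2 tumors at day 10 have the highest mean in every panel, and C3ar1 is the gene whose day 10 groups do not overlap.

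The forms of HER2 were first compared at day 10. All 9 estimates were negative with a median log2 change of -0.88, against -0.0412 over all genes tested, and 8 genes were called lower (limma, Benjamini-Hochberg adjusted p under 0.05 over all genes). At this comparison 26.1% of all genes tested were called lower and 15.2% higher. Both regulators had the largest differences. Serping1 ranged from 64.1 to 129 CPM (median 95.3) in FL-HER2 tumors and from 23.7 to 83.9 CPM (median 43.8) in p95HER2 tumors, a log2 change of -1.17 ± 0.21 (adjusted p = 3.24e-05). Cd55 ranged from 7.39 to 16.1 CPM (median 12.1) in FL-HER2 tumors and from 4.02 to 9.35 CPM (median 4.96) in p95HER2 tumors, a log2 change of -1.14 ± 0.16 (adjusted p = 7.75e-07). For Cd55, 8 of 10 p95HER2 tumors lay below the lowest FL-HER2 tumor, and for Serping1 7 of 10 did.

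Both receptors of the cleavage fragments were lower as well. C3ar1 ranged from 31.0 to 48.7 CPM (median 40.1) in FL-HER2 tumors and from 16.8 to 30.3 CPM (median 20.6) in p95HER2 tumors, a log2 change of -0.98 ± 0.14 (adjusted p = 4.53e-07). The 2 groups of tumors did not overlap for this gene, and the share of all genes without overlap is not given here. C5ar1 ranged from 12.3 to 23.5 CPM (median 18.2) in FL-HER2 tumors and from 6.75 to 17.1 CPM (median 11.3) in p95HER2 tumors, a log2 change of -0.80 ± 0.14 (adjusted p = 2.78e-05). The C5ar1 groups overlapped, although all 10 p95HER2 tumors lay below the FL-HER2 median.

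Of the components, C4b, whose product is split by C1s, had the largest day 10 difference. It ranged from 97.2 to 227 CPM (median 134) in FL-HER2 tumors and from 46.9 to 165 CPM (median 65.3) in p95HER2 tumors, a log2 change of -0.97 ± 0.19 (adjusted p = 8.01e-05). C1s1, the protease gene, ranged from 47.5 to 85.7 CPM (median 67.2) in FL-HER2 tumors and from 20.6 to 83.9 CPM (median 36.8) in p95HER2 tumors, a log2 change of -0.88 ± 0.20 (adjusted p = 5.51e-04). For both genes 8 of 10 p95HER2 tumors were below every FL-HER2 tumor. C1qa, which encodes the A chain of C1q, ranged from 157 to 269 CPM (median 213) in FL-HER2 tumors and from 77.9 to 232 CPM (median 138) in p95HER2 tumors, a log2 change of -0.73 ± 0.17 (adjusted p = 7.23e-04).

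C1ra, the partner protease, had the smallest called difference, with 21.7 to 61.4 CPM (median 35.1) in FL-HER2 tumors, 13.4 to 57.5 CPM (median 19.8) in p95HER2 tumors and a log2 change of -0.65 ± 0.25 (adjusted p = 0.0322). Leaving out any one of 8 libraries (FL-HER2 day 10 replicates 4, 6 and 9 or p95HER2 day 10 replicates 2, 3, 4, 5 and 7) ended the C1ra call, with adjusted p up to 0.0743, and the rank-sum test did not make it. C3, the central component, was not called: it ranged from 159 to 529 CPM (median 350) in FL-HER2 tumors and from 107 to 831 CPM (median 264) in p95HER2 tumors, a log2 change of -0.27 ± 0.29 (adjusted p = 0.476). The C3 values of p95HER2 tumors enclosed those of FL-HER2 tumors at both ends.

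A single p95HER2 day 10 tumor (replicate 6) was the highest of its group for 8 of the 9 genes, Cd55 being the exception. Without it the day 10 log2 change was -1.11 for C4b, -1.01 for C1s1, -0.80 for C1ra and -0.45 for C3, and C3 remained uncalled (adjusted p = 0.186). Among FL-HER2 day 10 tumors, replicate 10 was the lowest for 6 of the 9 genes.

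**Figure D2:**
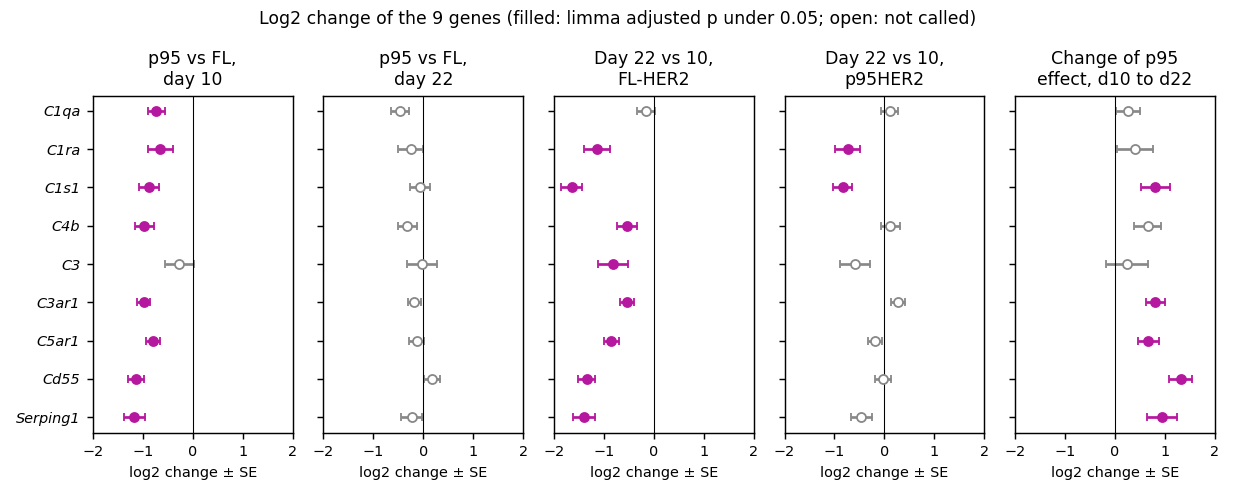
Log2 change ± SE of the 9 genes from limma over all 39 libraries in 5 comparisons; filled points passed an adjusted p of 0.05 and open points did not. The panels for day 10 and for time in FL-HER2 each hold 8 filled points and share the FL-HER2 day 10 libraries, and the day 22 panel holds none.

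At day 22 none of the 9 genes was called by limma, by limma voom or by a rank-sum test for each gene. The median log2 change was -0.18, against -0.00692 over all genes, and 2.98% of all genes tested were called higher and 1.54% lower. These 617 genes became 339 to 892 when 1 library was left out, with 339, 370 and 411 without FL-HER2 day 22 replicates 1, 3 and 8 and 408, 405 and 355 without p95HER2 day 22 replicates 4, 9 and 10. C1qa came nearest, with 134 to 276 CPM (median 209) in FL-HER2 and 101 to 256 CPM (median 133) in p95HER2 tumors and a log2 change of -0.47 ± 0.17 (limma adjusted p = 0.127). It was the 1 gene of the 9 with an unadjusted p under 0.05 (0.0114), and it passed the adjusted threshold when p95HER2 day 22 replicate 6, the highest of its group, was left out (adjusted p = 0.0433).

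Cd55 had the only positive day 22 estimate, with 3.73 to 7.85 CPM (median 5.03) in FL-HER2 and 3.78 to 8.69 CPM (median 5.60) in p95HER2 tumors and a log2 change of 0.17 ± 0.17 (adjusted p = 0.640). Estimates of the other 7 genes lay between -0.32 ± 0.19 for C4b and -0.03 ± 0.30 for C3, and their groups overlapped. An estimate that misses the threshold does not show equal levels, and the SE of C3 was 0.30.

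The comparison of the days within each form of HER2 showed the largest falls in FL-HER2 tumors. All 9 estimates were negative there, with a median log2 change of -0.85 against -0.0331 over all genes, and 8 genes fell. Over the same libraries 30.6% of all genes fell and 20.7% rose. C1s1 fell most: its day 22 FL-HER2 values were 14.3 to 31.6 CPM (median 22.8), all below the lowest day 10 value of 47.5 CPM, a log2 change of -1.65 ± 0.20 (adjusted p = 1.69e-08). Serping1, the inhibitor of that protease, was at 21.5 to 58.4 CPM (median 40.7) at day 22, also with no overlap, a log2 change of -1.40 ± 0.22 (adjusted p = 1.39e-06). Cd55 fell by 1.35 ± 0.17 on the log2 scale (adjusted p = 1.56e-08), and 8 of 9 day 22 values were below every day 10 value. The share of all genes separated in this way between the days is not given here.

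C1ra was at 8.69 to 27.1 CPM (median 19.2) in FL-HER2 tumors at day 22 and fell by 1.14 ± 0.25 on the log2 scale (adjusted p = 2.91e-04). Of the receptors, C5ar1 was at 9.03 to 12.4 CPM (median 10.8) and fell by 0.85 ± 0.15 (adjusted p = 7.95e-06), whereas C3ar1, at 23.0 to 39.5 CPM (median 27.6), fell by 0.54 ± 0.14 (adjusted p = 0.00149). The receptor genes thus moved in the same direction, and for C5ar1 8 of 9 day 22 tumors were below every day 10 tumor against 5 of 9 for C3ar1. C3 was at 110 to 301 CPM (median 196) and fell by 0.82 ± 0.30 (adjusted p = 0.0206), which the rank-sum test did not call. C4b was at 79.8 to 132 CPM (median 104) and fell by 0.54 ± 0.19 (adjusted p = 0.0187), but it was not called with log2(CPM + 1) or with limma voom. C1qa was the gene that did not pass, with a log2 change of -0.16 ± 0.17 (adjusted p = 0.471) and group means of 210 ± 34.8 CPM (SD, n = 10) at day 10 and 207 ± 47.5 CPM (SD, n = 9) at day 22.

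In p95HER2 tumors 2 of the 9 genes fell between the days, where 18.6% of all genes fell and 16.6% rose, and the median log2 change was -0.18 against 0.00165 over all genes. C1s1 was at 13.7 to 32.8 CPM (median 21.5) at day 22, a log2 change of -0.84 ± 0.20 (adjusted p = 9.08e-04). C1ra was at 8.60 to 24.8 CPM (median 15.0), a log2 change of -0.74 ± 0.25 (adjusted p = 0.0180). Both proteases of the C1 complex therefore fell with time in either kind of tumor by limma, but the rank-sum test did not call C1ra in p95HER2 tumors (adjusted p = 0.117).

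Serping1 (23.0 to 49.7 CPM at day 22, median 31.9) changed by -0.46 ± 0.21 (adjusted p = 0.0886) and C3 (133 to 239 CPM, median 179) by -0.59 ± 0.29 (adjusted p = 0.117), neither called. These calls turned on single libraries: Serping1 passed without p95HER2 day 10 replicate 5 or 7 (lowest adjusted p = 0.0350), and C3 without p95HER2 day 10 replicate 3 or 4 (lowest 0.0420). The SD of C3 in p95HER2 tumors was 227 CPM at day 10 (mean 326, n = 10) and 33.0 CPM at day 22 (mean 187, n = 10). C3ar1 (16.9 to 51.0 CPM, median 25.2) had a positive estimate of 0.27 ± 0.14 (adjusted p = 0.118), which passed without p95HER2 day 22 replicate 9 (adjusted p = 0.0436) and with log2(CPM + 1) or limma voom. C4b (50.8 to 154 CPM, median 85.6), C1qa, C5ar1 (7.86 to 14.3 CPM, median 8.96) and Cd55 had estimates between -0.18 and 0.12, and none passed.

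Whether the p95HER2 effect itself changed from day 10 to day 22 was tested as an interaction over all 4 groups. All 9 estimates were positive, which follows the more negative day 10 values, with a median of 0.67 against 0.0395 over all genes, and 5 genes were called higher where 13.5% of all genes were called higher and 6.20% lower. Cd55 changed most (1.32 ± 0.23, adjusted p = 1.65e-04), followed by Serping1 (0.94 ± 0.30, adjusted p = 0.0262), C1s1 (0.81 ± 0.29, adjusted p = 0.0408), C3ar1 (0.81 ± 0.19, adjusted p = 0.00338) and C5ar1 (0.67 ± 0.21, adjusted p = 0.0195). C4b (0.65 ± 0.27, adjusted p = 0.0795) did not pass, nor did C1ra (0.40 ± 0.35), C1qa (0.27 ± 0.24) and C3 (0.24 ± 0.42).

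The C1s1 interaction rested on a narrow margin, since leaving out any one of 20 libraries ended its call (adjusted p up to 0.0677), as did testing without a filter, log2(CPM + 1) and limma voom. C4b passed without FL-HER2 day 10 replicate 10, p95HER2 day 10 replicate 6 or p95HER2 day 22 replicate 8 (lowest adjusted p = 0.0202). All 5 calls ended when the length of the tumor number was a term (limma called 0 of 9, and 5 had an unadjusted p under 0.05, C4b among them and C5ar1 not): Cd55 was then at 0.998, Serping1 at 0.92, C1s1 at 0.84, C3ar1 at 0.81 and C5ar1 at 0.34. Over all 13650 genes tested, the interaction was called for 233 with this term and for 2682 without it. A rank-sum test has no interaction term and gives no value here.

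Other complement genes were counted from lists by role: 46 genes, of which 44 were in the table and 23 passed the filter on low values. At day 10, 14 of the 23 were lower in p95HER2 tumors and 1 was higher (median log2 change -0.60), against 26.1% and 15.2% of all genes. In the classical pathway list, members included, 7 of 9 tested genes were lower; C1qb (-0.74 ± 0.17, adjusted p = 7.52e-04) and C1qc (-0.62 ± 0.17, adjusted p = 0.00375) matched C1qa in size. Among receptors 5 of 6 tested genes were lower, led by Itgam, the alpha chain of complement receptor 3 (42.2 ± 8.09 CPM (SD, n = 10) in FL-HER2 and 20.9 ± 5.04 CPM (SD, n = 10) in p95HER2 tumors, log2 change -1.08 ± 0.16, adjusted p = 1.57e-06). Cd59a, a membrane blocker of the terminal pore, was lower by a log2 change of -1.36 ± 0.22 (adjusted p = 7.05e-06). Cfp, which encodes properdin, the stabiliser of the alternative C3-cleaving enzyme, was lower (-0.78 ± 0.17, adjusted p = 3.38e-04), as was Vtn, for vitronectin (-2.1 ± 0.44, adjusted p = 2.29e-04), the latter at 2.4 and 0.804 CPM on average. Masp1, a protease gene of the lectin pathway, was the 1 gene called higher (0.35 ± 0.15).

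At day 22, 2 of the 23 were higher and 1 lower, against 2.98% and 1.54% of all genes. Clu, for the soluble regulator clusterin, ranged from 101 to 222 CPM (median 155) in FL-HER2 and from 181 to 396 CPM (median 314) in p95HER2 tumors, a log2 change of 0.85 ± 0.21 (adjusted p = 0.0119). Masp1 was higher (0.66 ± 0.15, adjusted p = 0.00611) at 2.53 ± 0.531 CPM (SD, n = 9) against 4.0 ± 0.607 CPM (SD, n = 10). Itgax, the alpha chain of complement receptor 4, was lower (-0.76 ± 0.23, adjusted p = 0.0474).

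With time, 11 of the 23 fell and 1 rose in FL-HER2 tumors (median -0.79), and 7 fell in p95HER2 tumors (median -0.01). Of all genes 30.6% fell and 20.7% rose in FL-HER2 tumors, and 18.6% fell in p95HER2 tumors. Masp1 fell in both, with log2 changes of -2.28 ± 0.15 (adjusted p = 4.22e-15) and -1.97 ± 0.15 (adjusted p = 9.91e-14). Colec12, a membrane collectin of the lectin list, also fell in both, with -1.41 ± 0.15 (adjusted p = 3.87e-10) and -1.24 ± 0.14 (adjusted p = 6.35e-09). In FL-HER2 tumors Clu fell by 1.64 ± 0.21 (adjusted p = 2.12e-08) on the log2 scale. In p95HER2 tumors Susd4 (-0.73 ± 0.16, adjusted p = 3.08e-04) and C1rl (-0.80 ± 0.22, adjusted p = 0.00429) fell.

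The interaction was called for 5 of the 23 upwards and 1 downwards (median 0.40), against 13.5% and 6.20% of all genes. Genes called upwards included Itgam (1.13 ± 0.23, adjusted p = 7.11e-04), Clu (1.25 ± 0.29, adjusted p = 0.00212) and Cd59a (0.999 ± 0.32, adjusted p = 0.0234). The terminal pathway was scarcely measured: 2 of 7 genes passed the filter, C6 and C8g. C6 was lower in p95HER2 tumors at day 10 (-1.14 ± 0.44, adjusted p = 0.0348), and C8g, with group medians of 0.643 to 0.972 CPM, was called in no comparison. Hc, the gene of C5, averaged 0.492 CPM and was not tested.

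**Figure D3:**
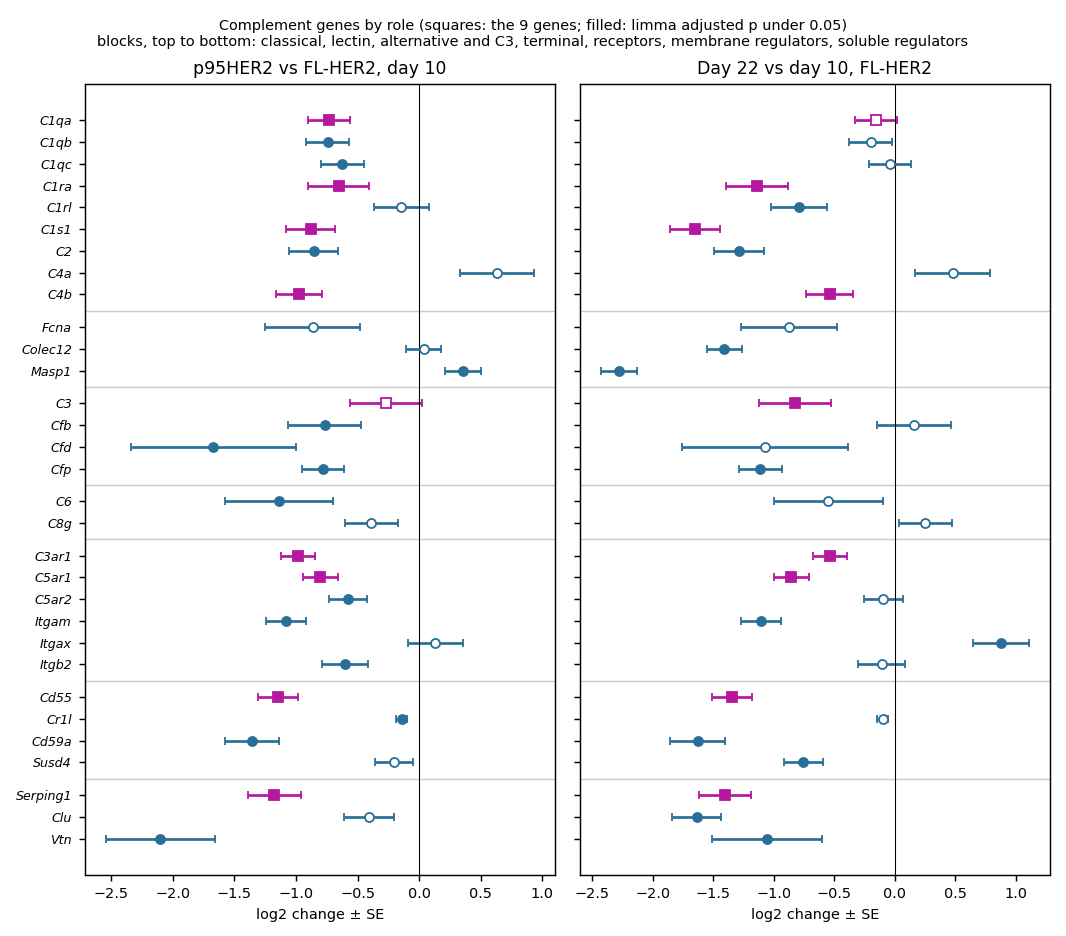
Log2 change ± SE of tested complement genes, in blocks by role, for p95HER2 against FL-HER2 at day 10 (left) and day 22 against day 10 in FL-HER2 tumors (right). Squares are the 9 genes of this text, circles are other complement genes, and filled symbols passed an adjusted p of 0.05; Masp1 is called higher on the left and lowest on the right.

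Markers of several other cell types differed between the same groups, some in the direction of the complement genes and some not. In bulk tumors fewer cells of a type and less RNA per cell cannot be told apart. Of 14 macrophage markers 10 were lower at day 10 (summed level 977 to 1316 CPM per library in FL-HER2 and 598 to 1104 CPM in p95HER2 tumors), 3 were lower at day 22, and in FL-HER2 tumors 9 fell and 1 rose with time. Of 12 fibroblast markers 9 were lower at day 10 (9187 to 27217 CPM against 5301 to 12239 CPM), 12 fell with time in FL-HER2 tumors and 10 in p95HER2 tumors, and the interaction was called for 8. At day 22 limma called none of the 12 fibroblast markers (3 had an unadjusted p under 0.05). At day 10, 7 of 8 endothelial markers and all 20 skeletal muscle genes were lower. Of 15 interferon gamma response genes limma called 0 at day 10 (0 had an unadjusted p under 0.05, median log2 change -0.35), and 3 of 16 type I interferon response genes (18.8%) were lower, against 26.1% of all genes. Of all genes 1.54% were lower at day 22, and 13.5% were called higher in the interaction. With time 30.6% of all genes fell and 20.7% rose in FL-HER2 tumors, and 18.6% fell in p95HER2 tumors. Other lists followed other patterns. T cell markers rose with time in FL-HER2 tumors (6 of 7, median 1.70) and were lower in p95HER2 tumors at day 22 (4 of 7, median -1.65). Of 9 acute phase and NF-kB target genes 3 were higher and 0 lower at day 10, and of 8 epithelial markers 2 were higher and 2 lower. The part of any of these cell types in the complement results was not tested beyond the score fits that follow.

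With the macrophage score (the mean log2 value of those 14 genes) as a covariate, limma called none of the 9 genes at day 10 (4 had an unadjusted p under 0.05). Over all genes 1424 were called at day 10 with this score, against 5636 without it. C3ar1 was then at -0.31 (adjusted p = 0.207), Cd55 at -0.59 (adjusted p = 0.0859), Serping1 at -0.03 (adjusted p = 0.947) and C1qa at 0.31 (adjusted p = 0.185). In FL-HER2 tumors C1s1 (-0.90), Cd55 (-0.97) and Serping1 (-0.62) still fell with time beside that score, and C1qa rose (0.55, adjusted p = 6.18e-04). Of the interactions, that of Cd55 was called (0.96, adjusted p = 0.00682).

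With a fibroblast score as covariate, C4b (-0.98, adjusted p = 0.0419) and C3ar1 (-0.84, adjusted p = 0.0142) were called lower at day 10, and limma called none in the interaction (2 had an unadjusted p under 0.05) and none over time (0 and 1 in FL-HER2 and p95HER2). Calls over all genes also went down with the fibroblast score, from 5636 to 1054 at day 10 and from 2682 to 420 in the interaction. Over time they went from 7011 to 426 in FL-HER2 and from 4799 to 2936 in p95HER2 tumors. The scores differ between the groups, so in these fits score and group are partly exchangeable. With a muscle score as covariate 6 of the 8 day 10 calls were made, C1qa (-0.37) and C1ra (-0.28) being lost. Of all genes 3244 were called at day 10 with the muscle score. With the length of the tumor number as a term, C4b, C3ar1 and Serping1 were called lower at day 10. Over all genes 1375 were called at day 10 with that term, against 5636 without it. The 5 genes that lost their call had estimates of -0.68 for C1qa, -0.99 for C1ra, -0.91 for C1s1, -0.47 for C5ar1 and -0.83 for Cd55, against -0.73, -0.65, -0.88, -0.80 and -1.14 without the term. Within the 10 FL-HER2 day 10 tumors, medians of the 2 with short and the 8 with long numbers were 40.8 and 39.9 CPM for C3ar1, 463 and 280 CPM for C3, 9.58 and 12.7 CPM for Cd55 and 14.8 and 19.0 CPM for C5ar1. Without the 11 libraries of skin score above 7, a limit chosen after the data were seen, 7 of the 8 genes were called at day 10. C1ra, at -0.70 (limma adjusted p = 0.0601), was not. The planned limit of 6 leaves 2 FL-HER2 day 10 libraries and gave 2 day 10 calls, C4b and C3ar1. Calls over all genes at day 10 were 3988 with the limit of 7 and 889 with the limit of 6.

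How the 9 genes varied together was then measured within groups, on log2 values after each group's mean was subtracted. The 39 deviations are from 4 groups, share library depth and normalization, and were permuted within groups (100000 resamples, smallest possible p 1e-05), and 72 relations were adjusted together. All 36 pairs of the 9 genes had a positive Pearson's r, from 0.00624 to 0.904 with a median of 0.627, and 23 exceeded 0.5. The tightest pair was C1ra and C1s1, the neighbouring protease genes (r = 0.90, Spearman's rho = 0.91, both permutation p = 1e-05, adjusted 2.77e-05 and 3.43e-05; r = 0.87 without the 2 libraries farthest out). C1s1 and Serping1, the protease and its inhibitor, were next (r = 0.90, rho = 0.89, both permutation p = 1e-05, adjusted 2.77e-05 and 3.43e-05; 0.88 without 2 libraries). C1ra went with C4b (r = 0.84, rho = 0.82; 0.82 without 2 libraries) and with C3 (r = 0.83, rho = 0.81; 0.78 without 2 libraries), each at the same permutation p values. Cd55 had the lowest values: its r was 0.01 with C4b (rho = -0.03, permutation p = 0.97 and 0.85, adjusted 0.972 and 0.864; 0.13 without 2 libraries) and 0.14 with C1ra (rho = 0.09, permutation p = 0.43 and 0.58, adjusted 0.472 and 0.618; 0.22 without 2 libraries). Its other pairs included C5ar1 (r = 0.51, rho = 0.42, permutation p = 0.0026 and 0.012, adjusted 0.00444 and 0.0174; 0.55 without 2 libraries) and Serping1 (r = 0.41, rho = 0.35, permutation p = 0.016 and 0.04, adjusted 0.0203 and 0.0504; 0.33 without 2 libraries).

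**Figure D4:**
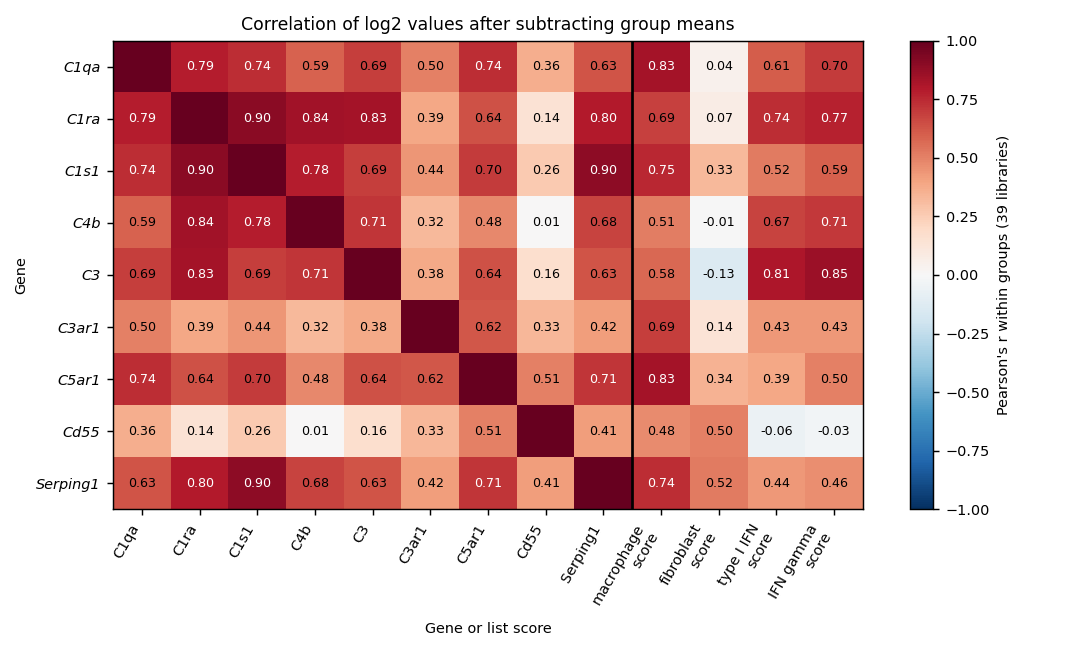
Pearson's r between the log2 values of the 9 genes, and with 4 list scores (right of the line), over 39 libraries after subtracting group means; colour runs from -1 to 1. C1ra, C1s1, C4b and C3 form a block of r from 0.69 to 0.90, and the Cd55 row runs from -0.06 for the type I interferon score to 0.51 for C5ar1.

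The genes were then set against list scores; differences between their r values were not tested. C1qa (r = 0.83, rho = 0.84; 0.85 without 2 libraries) and C5ar1 (r = 0.83, rho = 0.80; 0.79 without 2 libraries) had their highest r with the macrophage score, and so did C1s1 (r = 0.75, rho = 0.76; 0.71 without 2 libraries) and Serping1 (r = 0.74, rho = 0.75; 0.71 without 2 libraries), each with a permutation p of 1e-05 (adjusted 2.77e-05 for r and 3.43e-05 for rho). C3 had its highest r with the interferon gamma response score (r = 0.85, rho = 0.86; 0.84 without 2 libraries), as did C1ra (r = 0.77, rho = 0.77; 0.78 without 2 libraries) and C4b (r = 0.71, rho = 0.73; 0.70 without 2 libraries), at the same permutation p values. For Cd55 the r with that score missed the threshold (r = -0.03, rho = -0.15, permutation p = 0.86 and 0.39, adjusted 0.889 and 0.440; -0.18 without 2 libraries). The type I interferon response score gave r of 0.81 for C3, 0.74 for C1ra and 0.67 for C4b (rho = 0.82, 0.72 and 0.70, permutation p at most 2e-05). C3ar1 had its highest r with the macrophage score (r = 0.69, rho = 0.67, permutation p = 1e-05 and 2e-05, adjusted 2.77e-05 and 5.76e-05, and r = 0.57 without 2 libraries).

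With the fibroblast score Serping1 and Cd55 had the highest r of the 9 genes, below the 0.74 of Serping1 with the macrophage score. For Serping1 r was 0.52 (rho = 0.52, permutation p = 0.0012 and 0.0014, adjusted 0.00229 and 0.00260; 0.44 without 2 libraries). For Cd55 r was 0.50 (rho = 0.47, permutation p = 0.0026 and 0.0042, adjusted 0.00444 and 0.00705; 0.51 without 2 libraries), and with the macrophage score it was 0.48 (rho = 0.43, permutation p = 0.004 and 0.01, adjusted 0.00631 and 0.0154; 0.43 without 2 libraries). For C3 the fibroblast r was -0.13 (rho = -0.13, permutation p = 0.45 and 0.47, adjusted 0.496 and 0.509; -0.15 without 2 libraries). Each relation is over libraries and does not show in which cells a gene is transcribed.

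**Figure D5:**
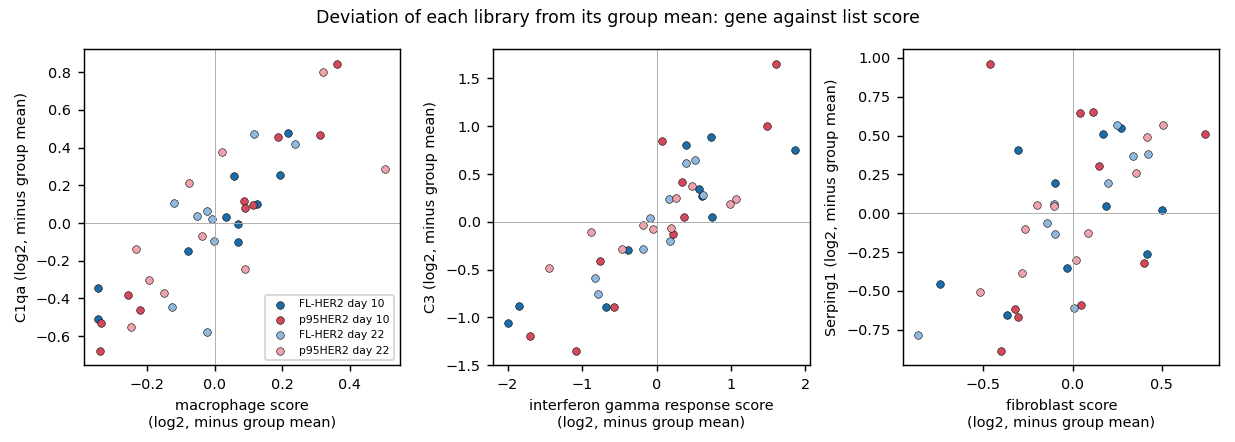
Deviation of 39 libraries from their group means (log2) for C1qa against the macrophage score, C3 against the interferon gamma response score and Serping1 against the fibroblast score, coloured by group. Points of all 4 groups rise together for C1qa and C3 (r of 0.83 and 0.85), and scatter more widely for Serping1 (0.52).

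Among all 13650 tested genes outside the 9, those most like each one within groups were found by the same r over 39 libraries, as a description. C1qa was most like the genes of the other chains of its protein, C1qb (r = 0.99) and C1qc (r = 0.98). C3 was most like Pla2g16 (0.90) and Sod2 (0.89), the mitochondrial superoxide dismutase gene, and C4b most like Apol6 (0.81) and Cfb (0.80), the gene of factor B. C1ra was most like the surface protein genes Ly6a (0.90) and Ly6c1 (0.86), and C1s1 most like Ly6c1 (0.85) and Anpep (0.81), for a surface peptidase. Serping1 was most like Igfbp6 (0.86) and Ly6c1 (0.83), so Ly6c1 was in the first 2 for 3 of the 9 genes. C3ar1 was most like Cd72 (0.85) and Syk (0.83), and C5ar1 most like Pirb (0.84) and Ms4a6d (0.82). Cd55 was most like Neu2 (0.83) and Ppp1r14c (0.82), with lower Spearman's rho values of 0.75 and 0.65.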

How the data were processed

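Poly(A)-selected RNA of 39 tumors was sequenced with a directional kit, per the labels' protocols. The submitters' processing notes name STAR 2.4.2a, DESeq2 and mm10, without roles. The deposited table holds log2 values: log2 of read count divided by a size factor, plus 1, although it is titled as CPM. Whole reads were recovered from the steps between low values (100% of values within 0.001 reads), and CPM and RPKM (GENCODE M21 exon length) were computed from them. Because the file holds log2 values, limma 3.58.1 (R 4.3.3, moderated test with a trend, 1 coefficient per group, all 39 libraries) was used. A gene was tested when 9 or more libraries reached 1 CPM (13650 genes), with Benjamini-Hochberg adjustment over all of them; fold changes on this scale, with a pseudocount of 1, understate changes of low genes. Groups came from the sample titles, and replicates were numbered in accession order. No 2 libraries held identical values. Correlations used permutation tests (scipy 1.17.1). The fit was tested on simulated data.

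The 9 genes and all lists were chosen with earlier results of these data known. Besides the 9 genes, the text names up to 4 called complement genes per comparison with the smallest adjusted p, genes from lists with none called, the 2 genes most like each member, and Erbb2; C1qb, C1qc, C6, Hc, Itgax and the near-identical copies were added after their values were seen. Alternatives were other pseudocounts (0.1 and 5), filters, scalings, limma voom, rank-sum tests, covariates and left-out libraries. The text and figures leave out 1 complement gene, which is not reported here.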

Additional observations from a re-analysis of the deposited data

Results flagged for a closer look

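In 4 of 36 combinations of gene and group, 1 tumor lay far from the others by Dixon's ratio, which chance gives in about 1 of 20 groups. C4b was 165 CPM in p95HER2 day 10 replicate 6 and 154 CPM in p95HER2 day 22 replicate 3, the highest of their groups. C3ar1 was 51.0 CPM in p95HER2 day 22 replicate 2, and Cd55 was 7.85 CPM in FL-HER2 day 22 replicate 8.

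The p95HER2 effect differed between day 10 and day 22 for 5 genes, by the interaction test (limma, adjusted p under 0.05). The differences were 0.81 for C1s1, 0.81 for C3ar1, 0.67 for C5ar1, 1.32 for Cd55 and 0.94 for Serping1 on the log2 scale. None of the 5 was called with the length of the tumor number as a term, and long numbers occur only among FL-HER2 day 10 tumors. Interaction calls over all genes tested went from 2682 to 233 with that term.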

How the results depend on the processing

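No paired analysis was possible because replicate numbers follow accession order and pair no tumors. Numbers of called genes below are of 9, against 8 (day 10), 0 (day 22), 8 (time in FL-HER2), 2 (time in p95HER2) and 5 (interaction). Pseudocounts, filters, median-of-ratios factors, quantile scaling, log2(CPM + 1), limma voom and the 2-group fits kept every number within 1.5 times. Quantile scaling moved the median of all genes from -0.0412 to 0.0641 at day 10 and from -0.0331 to 0.0794 over time in FL-HER2 (log2(CPM + 1) 0.0795, voom 0.0822). The share of calls that were higher at day 10 was 36.7%, against 49.1% with median-of-ratios factors, 62.9% quantile, 51.5% log2(CPM + 1) and 51.3% voom; over time in FL-HER2 it was 40.4%, against 62.5% quantile, 62.4% log2(CPM + 1) and 61.9% voom; over time in p95HER2 47.1%, against 64.3% log2(CPM + 1) and 64.6% voom; in the interaction 68.5%, against 43.5% quantile, 56.6% median-of-ratios, 56.1% log2(CPM + 1) and 54.7% voom. Cd55 over time in p95HER2, not called, became positive with quantile scaling (0.0105), log2(CPM + 1) (0.0255) and voom (0.0217), the only estimate of the 9 genes to change sign among these settings.

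With only the 21 libraries of 0.1% to 1.3% muscle reads the numbers were 0 (day 10), 5 and 4 (time) and 0 (interaction). Calls over all genes were then 641 at day 10, 3506 and 3167 over time and 153 in the interaction. At day 10 this left 3 FL-HER2 and 4 p95HER2 libraries. In the 21 libraries C3 was 0.52 at day 10, C1qa 0.0705 over time in FL-HER2 and C4b -0.19 over time in p95HER2. The interactions of C1qa, C1ra and C3 were -0.0175, -0.17 and -0.54. Without libraries of skin score above 6 (which leaves 2 FL-HER2 day 10 libraries) the numbers were 2 at day 10, 4 and 1 over time and 0 for the interaction. Lost day 10 estimates were -0.76 (C1qa), -0.66 (C1ra), -0.78 (C1s1), -0.72 (C5ar1), -0.78 (Cd55) and -1.09 (Serping1). Over all genes 889 were then called at day 10, 3718 and 3259 over time and 176 in the interaction. With a limit of 7, chosen after the data were seen, the interaction had 3 and C3 was -0.0403 there. The limit of 7 left 1659 interaction calls over all genes. With the tumor number's length as a term the numbers were 3 at day 10, 5 over time in FL-HER2 and 0 for the interaction. Over all genes 1375, 2953 and 233 were then called, against 5636, 7011 and 2682 without the term. The rank-sum test called 1 over time in p95HER2, where it called 4687 of all genes. With the muscle score as covariate the interaction had 2, where 2102 of all genes were called. C3 was then 0.38 at day 10, 0.21 at day 22 and -0.16 in the interaction, C1s1 0.0272 at day 22 and C1qa 0.0523 over time in FL-HER2.

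With the macrophage score the numbers were 0 (day 10), 4 and 4 (time, 1 of each 4 higher) and 1 (interaction). Day 10 values were then 0.31 for C1qa, 0.59 for C1ra, 0.22 for C1s1, 0.97 for C3 and 0.0562 for C5ar1; day 22 values 0.19 for C1ra, 0.32 for C1s1, 0.40 for C3, 0.0633 for C3ar1, 0.17 for C5ar1 and 0.17 for Serping1. Over time in FL-HER2, C1qa was 0.55 and C3 0.0191, and the interactions of C1qa, C1ra and C3 were -0.40, -0.40 and -0.57. With the fibroblast score they were 2 at day 10, 0 and 0 over time and 0 for the interaction; C1s1 was 0.0238 at day 22, Serping1 0.0104 over time in FL-HER2, and C5ar1, Cd55 and Serping1 were 0.12, 0.47 and 0.23 over time in p95HER2. Over all genes, calls with the macrophage score were 1424 at day 10, 5064 and 5117 over time and 1530 in the interaction. With the fibroblast score they were 1054 at day 10, 426 and 2936 over time and 420 in the interaction. Without a score they were 5636, 7011 and 4799, and 2682. The cause of these shifts was not tested.

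Leaving out 1 library at a time gave 0 to 1 called genes at day 22, and ranges of -0.15 to 0.0028 for C1s1 and -0.13 to 0.0475 for C3 at day 22 and of -0.10 to 0.0557 for Cd55 over time in p95HER2. Depth did not limit the 9 genes, which had at least 94 reads in every library.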
